A study of Mus musculus with 11 samples.

Results

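The acinar enzyme genes are 31 mouse genes whose products are made by the acinar cells of the pancreas, most of them digestive enzymes or proteins of the granules that store them. They were taken by symbol from a list of names, not by a methylation threshold, and were looked up among 24391 promoters and 25802 genes, together with every 5000 bp tile (of 259716) that overlaps one of these genes or its promoter. A promoter row was found for 11 of the 31 genes, a gene row for 17 and at least 1 of these for 19, and 52 tiles overlapped a member. The remaining 12 genes had neither row in the tables used here, and 6 of those 12 had a tile.

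DNA methylation was measured in the whole pancreas of wild-type C57BL/6N mice at postnatal day 0, using RRBS (reduced representation bisulfite sequencing). In this assay MspI (cutting at CCGG) and TaqI (cutting at TCGA) fragment the DNA, reads start at the cut sites, and bisulfite reveals which CpG are methylated. The amphetamine group comprised 5 pups (3 females and 2 males) whose dams were injected with 10 mg/kg amphetamine on embryonic days 14.5, 15.5 and 16.5, and the control group comprised 6 pups (3 females and 3 males) of the saline arm. The design asked whether methylation differed with amphetamine exposure in utero or with sex (6 females against 5 males), over the same 11 mice. All libraries carry the same run and lane name in the labels, which do not say which pups shared a litter, and p-values measure the spread between these pups.

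Acinar cells build zymogens, the inactive precursors of proteases, store them in zymogen granules and release them into the duct, where they reach the gut and are activated. Many of these genes are switched on in fetal life by the acinar transcription factor complex PTF1. This complex binds an E-box (CANNTG) beside a TC-rich box (TTTCCC). Many acinar enzyme genes are among the most highly transcribed genes of the organ. Transcripts were not part of the data used here, so which members were active at postnatal day 0 is not known from them. Their promoters hold few CpG, so that CpG methylation can be read at few positions, and in whole pancreas a methylation level is a share of reads in which cell types, cells and alleles cannot be told apart.

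The promoter window of a gene took in the 1500 bp before its start and the 500 bp after it. The 11 promoters with a row held 11 to 33 CpG (median 25), against a median of 58 over all promoters, and 4 to 13 of these (median 8, against 31) had an MspI or TaqI site at most 50 bp away, so that a read can cover them. These are called CpG in reach below. The 20 members without a promoter row held 2 to 34 CpG (median 10.5), with a median of 1 in reach. Of these 20, 5 had none in reach (Prss1, Prss2, Amy1, Dnase1 and Klk1), 10 had 1 to 3, and 5 had 4 or more (Ctrc, Cela2a, Cpa1, Pla2g1b and Gp2). The trypsinogens stood at the low end, with 2 CpG in the Prss1 promoter, 4 in that of Prss2 and 7 in that of Prss3. None of the 5 trypsinogen genes, which encode the precursors of trypsin and are related to each other, had a promoter or gene row. Why their rows are absent was not tested.

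**Figure D1:**
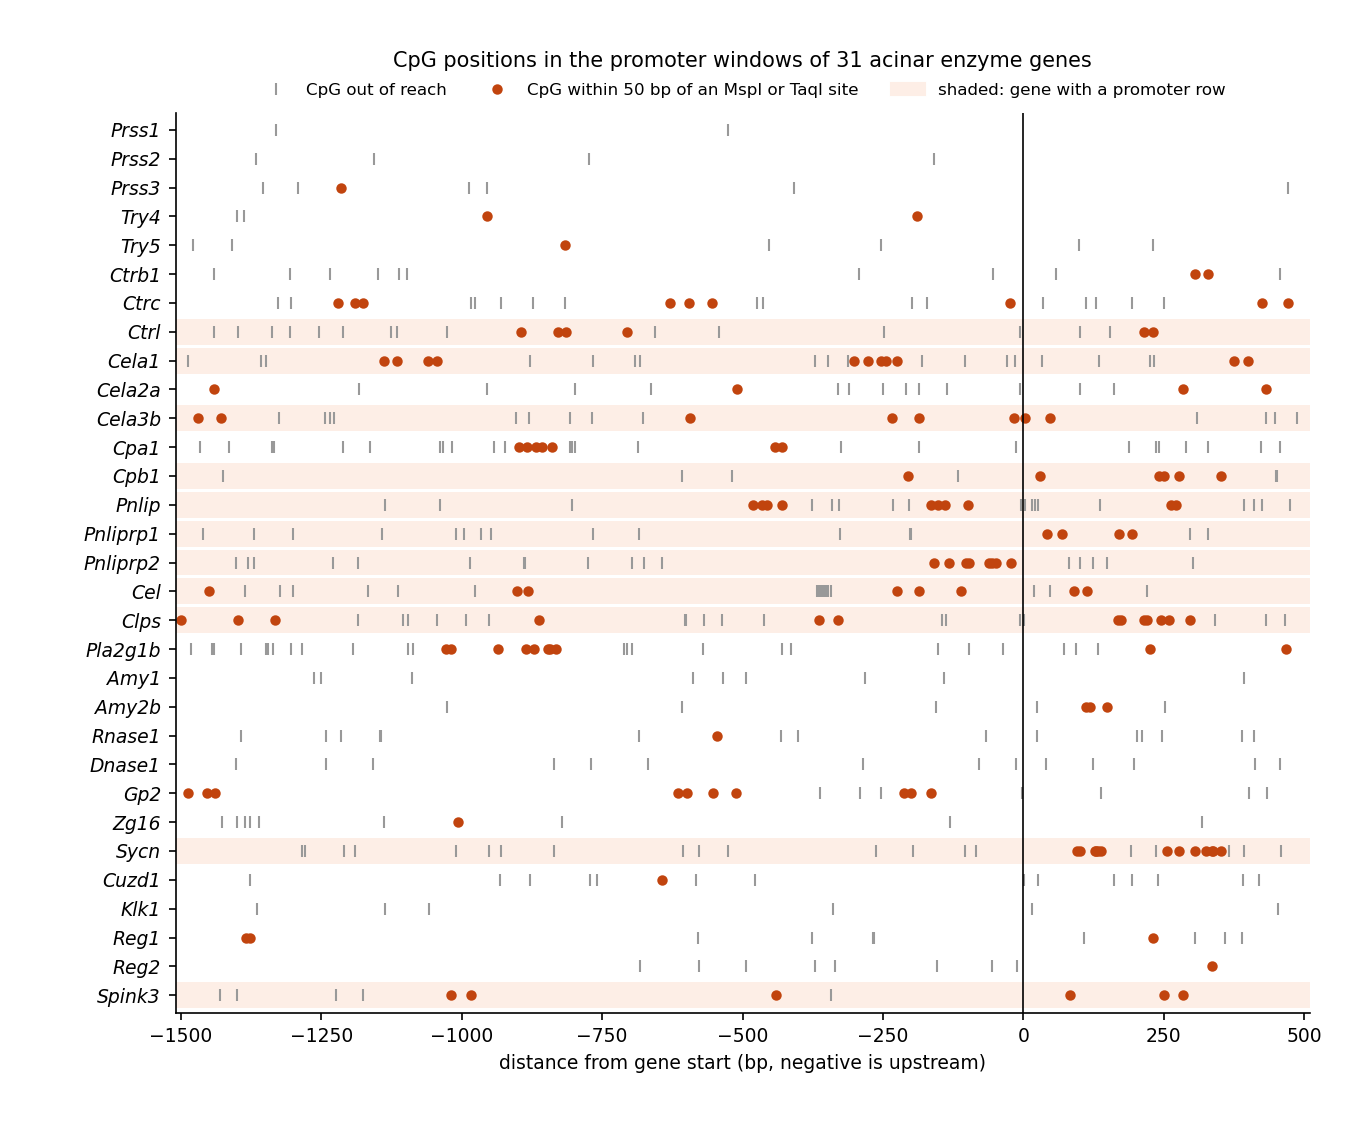
Every CpG in the promoter windows of the 31 acinar enzyme genes by its distance from the gene start in bp (horizontal axis), with 1 line per gene. Filled circles are CpG in reach, with a cut site at most 50 bp away, ticks are CpG out of reach, and shaded lines are the 11 genes with a promoter row, which hold 4 to 13 circles each.

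The letters upstream of the start show how differently the reads can sample these promoters. The 250 bases before the gene start are given 5′ to 3′ on the strand of the gene for the 3 promoters of lowest and the 3 of highest control methylation among those with reads in all mice, read from GRCm38, the assembly that mm10 names. CpG in reach are in capitals. The windows are chr4:137430541-137430790 (minus strand) for Cela3b, chr19:58759473-58759722 (plus strand) for Pnliprp2, chr17:28560767-28561016 (minus strand) for Clps, chr2:28563404-28563653 (minus strand) for Cel, chr3:20275734-20275983 (minus strand) for Cpb1 and chr8:105933863-105934112 (minus strand) for Ctrl.
Cela3b: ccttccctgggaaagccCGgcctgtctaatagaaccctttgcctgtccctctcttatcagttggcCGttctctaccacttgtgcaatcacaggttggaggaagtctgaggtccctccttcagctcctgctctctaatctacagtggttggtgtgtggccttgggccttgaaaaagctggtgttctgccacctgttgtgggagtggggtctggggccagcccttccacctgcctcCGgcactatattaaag
Pnliprp2: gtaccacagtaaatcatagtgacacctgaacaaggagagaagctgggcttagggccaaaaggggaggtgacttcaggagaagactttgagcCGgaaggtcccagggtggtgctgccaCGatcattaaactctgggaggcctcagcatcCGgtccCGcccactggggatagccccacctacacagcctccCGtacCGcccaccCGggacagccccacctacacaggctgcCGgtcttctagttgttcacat
Clps: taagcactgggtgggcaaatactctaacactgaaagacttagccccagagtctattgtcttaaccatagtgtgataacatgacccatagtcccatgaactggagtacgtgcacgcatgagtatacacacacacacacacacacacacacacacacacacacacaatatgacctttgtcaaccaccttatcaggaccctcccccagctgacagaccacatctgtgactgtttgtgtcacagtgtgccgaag
Cel: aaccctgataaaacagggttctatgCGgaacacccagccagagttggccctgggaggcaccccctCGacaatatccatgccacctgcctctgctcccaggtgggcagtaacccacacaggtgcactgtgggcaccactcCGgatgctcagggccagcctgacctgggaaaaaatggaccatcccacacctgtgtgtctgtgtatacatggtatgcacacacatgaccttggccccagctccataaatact
Cpb1: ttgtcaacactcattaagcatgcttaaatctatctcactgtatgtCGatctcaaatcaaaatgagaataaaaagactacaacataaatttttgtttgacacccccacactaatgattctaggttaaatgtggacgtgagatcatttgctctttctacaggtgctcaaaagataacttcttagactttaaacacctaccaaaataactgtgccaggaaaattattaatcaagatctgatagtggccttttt
Ctrl: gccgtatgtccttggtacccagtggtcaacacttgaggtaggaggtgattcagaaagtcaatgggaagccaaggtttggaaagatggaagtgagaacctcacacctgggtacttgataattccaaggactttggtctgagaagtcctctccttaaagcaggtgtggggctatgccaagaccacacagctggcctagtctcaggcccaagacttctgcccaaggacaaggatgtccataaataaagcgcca

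In Pnliprp2 the 8 CpG in reach of the whole promoter window all lay within these 250 bases, between 159 and 21 bp upstream of the start, and 4 MspI sites stood among them. In Cela3b 3 of 8 CpG in reach lay in the stretch shown and another stood 3 bp past the start. Clps and Ctrl held none in reach in the stretch shown, and the closest lay 168 and 215 bp downstream of their starts. For these 2 genes no CpG in reach stood next to the start.

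Over the 300-base RefSeq promoter windows (GRCm38.p6, 250 bases before to 50 after each start), 26 of the 31 genes were matched by symbol, with 28 windows. CCGG was in 25% of these windows against 52.8% of all 32851, TCGA in 10.7% against 22% and CG in 89.3% against 94.6%. CANNTG was in 82.1% against 72.3%, and TTTCCC or its complement GGGAAA in 32.1% against 25.2%. Apart from the TC-rich box these motifs read the same on both strands, and each cut site also counts as a CG.

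Coverage is the deposited read coverage of a region, averaged over the mice of a group with mice without reads counted as 0. Its exact definition is not given in the sources used here. In the controls it was 16.3 to 93.3 for the 11 promoters (median 40.2), below the median of all promoters (184) for each of the 11. The 6155 promoters with 4 to 13 CpG in reach had a median of 37.8, near that of the members. Reads were present in all 11 mice for 6 of the 11 promoters (Ctrl, Cela3b, Cpb1, Pnliprp2, Cel and Clps), against 86.1% of all promoters. Coverage was higher in amphetamine than in control mice at 8 of the 11 promoters. Over all promoters its median was likewise higher, 230 in amphetamine against 184 in control mice. The SD within groups, pooled over both groups, had a median of 20.8 percentage points over the 11 promoters, against 4.43 over all promoters and 15.3 over the 6155 promoters that also had 4 to 13 CpG in reach. In 9 of the 11 promoters the mice of 1 group spanned at least 50 points, which held for 45.6% of those 6155.

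In control mice the promoters of acinar enzyme genes stood anywhere between 15.5% and 100% methylated. Their median was 69.0%, against 8.15% over all 24391 promoters and 79.5% over the 6155 promoters with 4 to 13 CpG in reach. It was 53.9% when only members with reads in all mice were kept. Only 1 of the 11 was below 20% (Cela3b), 6 were between 20% and 80%, and 4 were above 80% (Pnlip, Cela1, Ctrl and Sycn). Over the 6155 promoters, 9.26% were below 20%, 42.0% in between and 48.7% above 80%. The other lists are given for their place only. Promoters of the other acinar secretory pathway genes, such as transcription factors and parts of the secretion machinery, had a median of 4.93% (19 of 31 genes with a row, median 32 CpG in reach), and duct genes one of 10.1% (10 of 10). Islet hormone genes had a median of 33.1% (6 of 9), blood cell genes 78.0% (5 of 14) and genes of liver products 72.5% (7 of 25). These lists differ in CpG in reach, with medians of 34.5 for duct, 12.5 for islet hormone, 10 for blood and 13 for liver genes, and methylation does not identify the tissue as transcripts would.

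**Figure D2:**
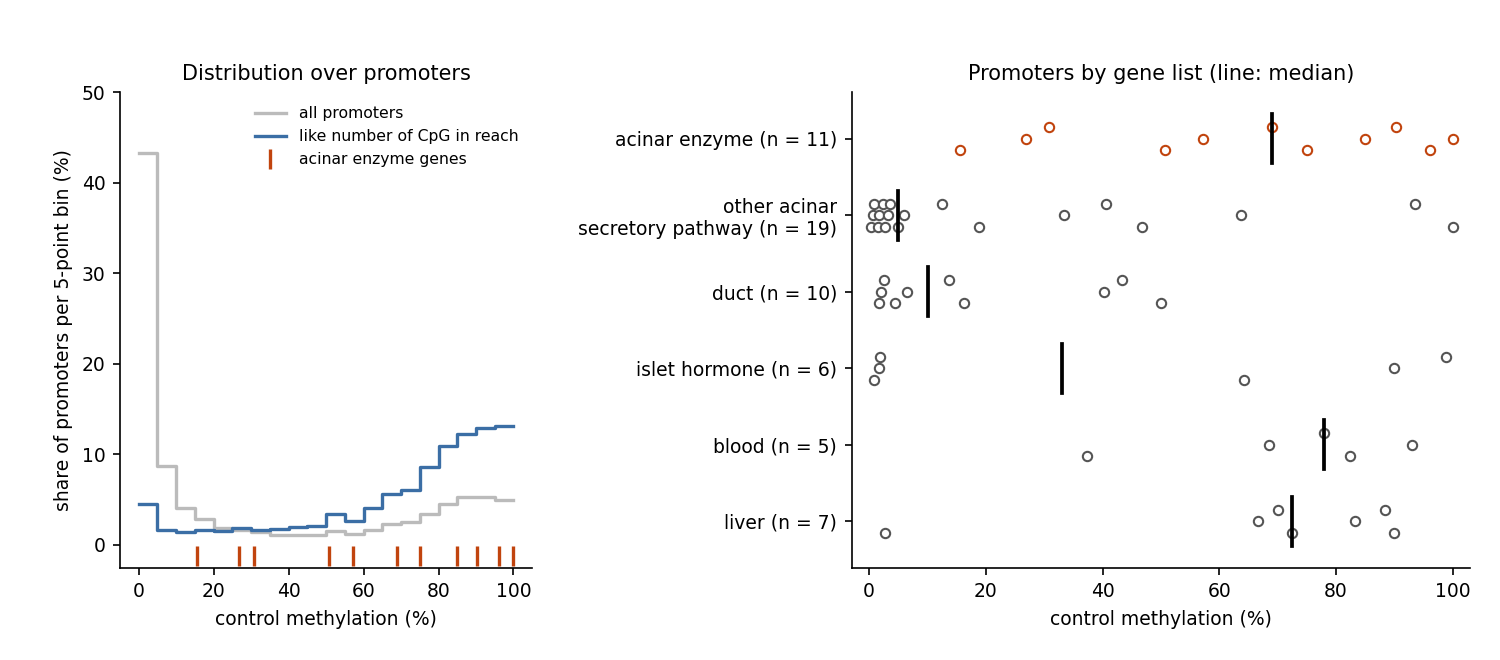
Promoter methylation of control mice in percent. Left, the share of promoters in bins of 5 points for all 24391 promoters and the 6155 with a like number of CpG in reach, with the 11 acinar enzyme promoters as ticks. Right, each promoter as a circle by gene list, with the list median as a line, at 69.0% for acinar enzyme genes and 4.93% for the other acinar secretory pathway genes.

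No acinar enzyme promoter was called between amphetamine and control mice. Differences are amphetamine minus control, in percentage points. With limma's moderated test adjusted over the whole table, 0 of 11 promoters were called, where the table held 4 called promoters (0.0164%). At an unadjusted p under 0.05, 0 of 11 passed, against 4.12% of all promoters, and a prior variance that follows mean methylation gave 0 by both rules. The mice of the 2 groups overlapped in range at each of the 11, and 0.541% of all promoters had ranges apart. Methylation was higher in amphetamine mice in 4 promoters and lower in 7, with a median difference of -1.43 percentage points against 0 over all promoters. Over the 6 promoters with reads in all mice the median difference was 4.45 points, so the sign of the median changed with this filter. The size of the differences, regardless of sign, had a median of 9.16 points, against 1.79 over all promoters and 6.21 over those with 4 to 13 CpG in reach. The median standard error of the 11 differences was 12.1 points.

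**Figure D3:**
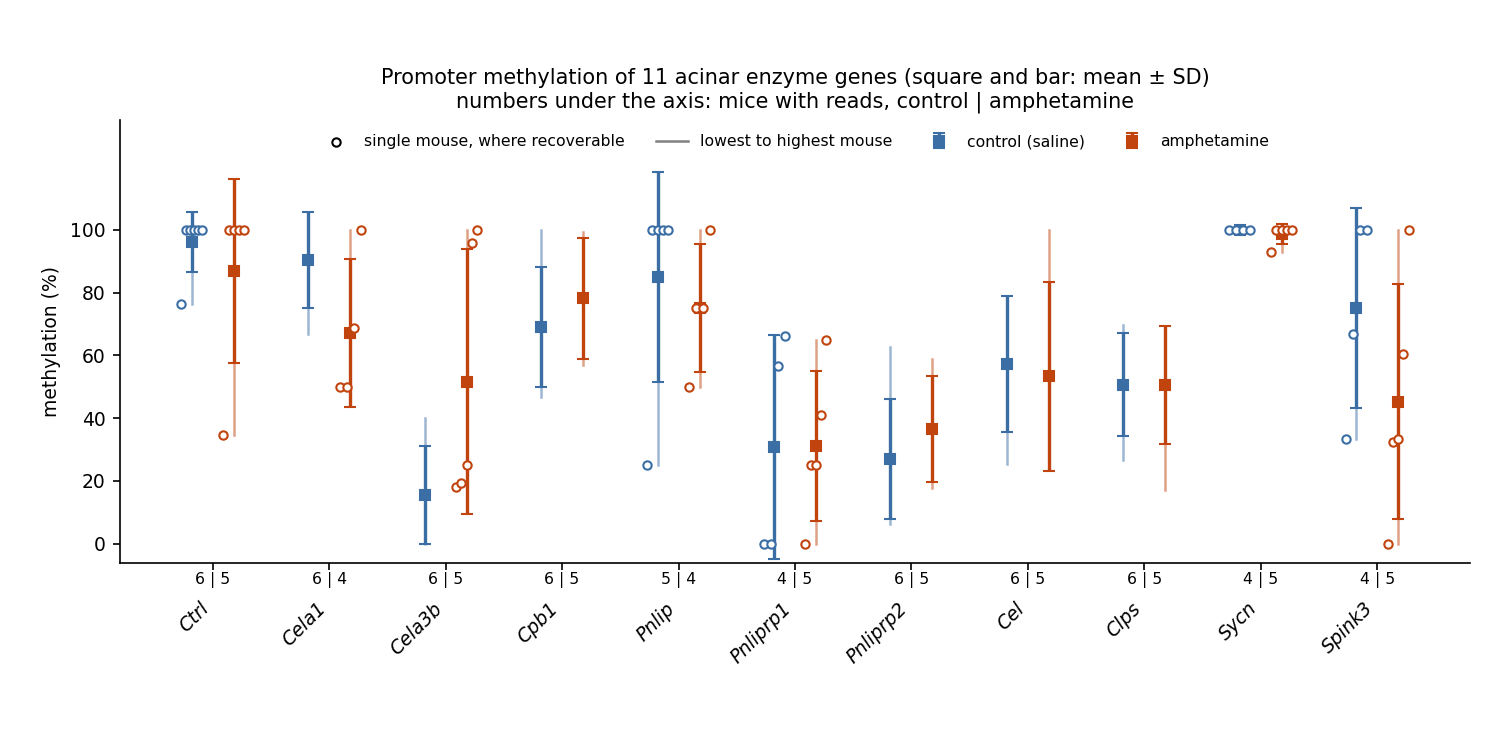
Promoter methylation in percent for the 11 acinar enzyme genes with a promoter row, control in blue and amphetamine in red. Squares with bars are the mean ± SD, thin lines run from the lowest to the highest mouse, and circles are single mice where the group summaries give them; in Cela3b 2 amphetamine mice stand at 95.7% and 100%, and the other 3 lie within the control range.

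Among the elastases, Cela3b (chr4:137430041-137432040) showed the greatest difference of the 11 promoters. This gene encodes a pancreatic elastase-type protease. Coverage was 24.0 in amphetamine and 30.2 in control mice, and the least covered amphetamine mouse had 5. The amphetamine mice were at 18.2%, 19.4%, 25%, 95.7% and 100%, and the controls lay between 0% and 40.0%. In amphetamine mice 3 of the 5 were within the control range and 2, a female and a male, were far above it. The means were 51.7% ± 42.3 (SD, n = 5) and 15.5% ± 15.5 (SD, n = 6), a difference of 36.1 points with a standard error of 17.7 (limma, unadjusted p = 0.0685, adjusted p = 0.958). The tile that holds this promoter had the same reads and the same values.

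Cela1, the elastase whose promoter row lies at chr15:100687421-100689420, went the other way. Its coverage was 24.2 and 16.3, with reads in 4 of 5 amphetamine mice, and the least covered control had 3. The amphetamine mice stood at 50%, 50%, 68.8% and 100%, and the 6 controls between 66.7% and 100% with a mean of 90.3% ± 15.3. The amphetamine mean was 67.2% ± 23.6 and the difference -23.1 points with a standard error of 11.6 (limma, adjusted p = 0.958). The 2 lowest amphetamine mice were below all controls, and the highest control equalled the highest amphetamine mouse. The 5 kb tile that holds the whole promoter row and 2920 bp of the gene (chr15:100685001-100690000) was deeper, with coverage of 220 and 134, and stood at 24.7% ± 13.0 in the 5 amphetamine and 27.2% ± 13.6 in the 6 control mice. Its difference was -2.53 points with a standard error of 7.70 (limma, adjusted p = 0.996).

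The chymotrypsinogen-like gene Ctrl (chr8:105933363-105935362) was almost fully methylated. Coverage was 26.6 in amphetamine and 16.7 in control mice, with 8 in the least covered control. Of the amphetamine mice 1 was at 34.6% and 4 at 100%, with the controls at 76.5% once and at 100% in the other 5. Both mice below 100% were females, and the 5 males were all at 100%. The difference of the means, 86.9% ± 29.2 and 96.1% ± 9.61, was -9.16 points with a standard error of 12.1 (limma, adjusted p = 0.963).

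Cpb1, which encodes the precursor of carboxypeptidase B, had the deepest coverage of the 11, 123 in amphetamine and 93.3 in control mice, at chr3:20275234-20277233. The amphetamine mice lay between 56.9% and 99.3% and the controls between 46.7% and 100%. The means of 78.1% ± 19.3 (n = 5) and 69.0% ± 19.2 (n = 6) differed by 9.09 points with a standard error of 11.2 (limma, adjusted p = 0.961). The SD was about 19 points in each group, and its relation to coverage was not tested.

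The lipases gave 5 promoters, none far from its control. Cel (chr2:28562904-28564903), the bile salt-stimulated lipase, had coverage of 66.8 and 83.3 and ranged from 24.7% to 100% in amphetamine mice and from 25.4% to 77.6% in controls, with means of 53.3% ± 30.1 and 57.2% ± 21.6. Its difference was -3.86 points with a standard error of 14.9. Clps (chr17:28560267-28562266), the colipase that anchors pancreatic lipase to fat droplets, had coverage of 76.2 and 56.5 and means of 50.5% ± 18.8 and 50.7% ± 16.4, a difference of -0.191 points with a standard error of 10.1. The amphetamine mice ranged from 17.2% to 61.8% at Clps and the controls from 26.7% to 69.7%. Pnliprp2 (chr19:58758223-58760222), a lipase of milk fat digestion in the newborn, had coverage of 97.4 and 69.3. Its amphetamine mice lay between 17.6% and 58.9% and its controls between 6.17% and 62.7%, with means of 36.5% ± 16.8 and 26.9% ± 19.1 and a difference of 9.67 points with a standard error of 10.5. The limma adjusted p was 1 for Cel and Clps and 0.958 for Pnliprp2.

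Reads were missing in some mice for the other lipase promoters. Pnlip, the main triglyceride lipase, was read in 4 of 5 amphetamine and 5 of 6 control mice (coverage 28.6 and 40.2). Levels were 50%, 75%, 75% and 100% in amphetamine mice, with the controls at 25% once and 100% in the other 4. The lowest mouse of all was thus a control, and 4 of 5 controls were fully methylated. The least covered female had a coverage of 4 at Pnlip. Pnliprp1, a lipase relative with little activity of its own, was read in 5 amphetamine mice, at 0%, 25%, 25%, 41.0% and 65.0%, and in 4 controls, at 0%, 0%, 56.8% and 66.3%. Coverage there was 28.8 and 28.5. Means of 31.2% ± 23.9 and 30.8% ± 35.7 left a difference of 0.429 points with a standard error of 18.8 (limma, adjusted p = 1).

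Sycn, which encodes the granule protein syncollin, was at 100% in 8 of 9 mice with reads and at 92.9% in 1 amphetamine female (coverage 61.6 and 45.5). Its 13 CpG in reach all lay 95 to 352 bp downstream of the start, inside the gene, and its promoter row and gene row held identical values. Spink3, the trypsin inhibitor that guards acinar cells against early activation (listed as Spink1 in the annotation used here), had coverage of 39.8 and 21.3. The amphetamine mice were at 0%, 32.4%, 33.3%, 60.5% and 100%, and the 4 controls with reads at 33.3%, 66.7%, 100% and 100%. The 5 females with reads lay between 32.4% and 66.7%, whereas the males were at 0% once and at 100% in the other 3. The amphetamine mean of 45.2% ± 37.4 and the control mean of 75% ± 31.9 differed by -29.8 points with a standard error of 22.3 (limma, adjusted p = 0.958).

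By their medians, the gene rows were covered more deeply than the promoter rows and differed less between the groups, but the 2 sets hold different genes. Among genes with both rows, the difference was smaller in the gene body at Cela1, Cela3b, Cpb1, Pnlip and Clps. It was larger there at Ctrl, Pnliprp1 and Cel, and equal at Sycn. The gene bodies of Ctrl and Clps had lower coverage than their promoters. The 17 gene rows had a median coverage of 118 in amphetamine and 115 in control mice and a median control level of 78.7%, with all mice read in 13. Methylation was higher in amphetamine mice in 9 and lower in 8, with a median difference of 0.0397 points against -0.0852 over all genes, and a median size of 2.97 points against 2.42. With limma adjusted over the table, 0 of 17 were called, where 3 of 25802 genes were (0.0116%). At an unadjusted p under 0.05, 1 of 17 passed, against 4.38% of all genes, and it was Cuzd1 under either variance model. At none of the 17 did the ranges of the groups separate, which 0.372% of all genes did. Of the 9 genes with both rows, 7 had the same sign in promoter and gene body, and Pnlip and Clps did not. The gene body was more methylated than the promoter in controls in 7 of the 9.

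**Figure D4:**
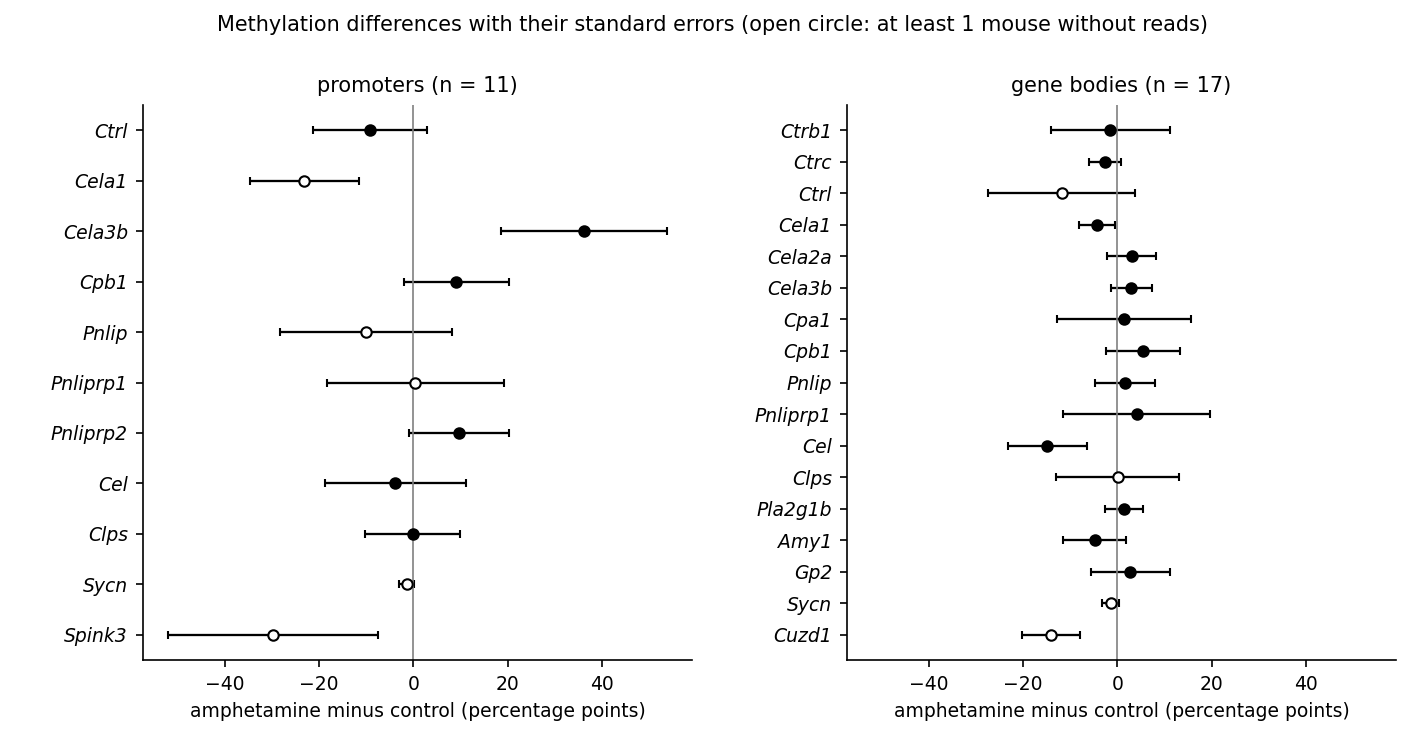
Amphetamine minus control methylation in percentage points with its standard error, for 11 promoters (left) and 17 gene bodies (right) in order of role. Open circles have at least 1 mouse without reads; the promoter of Cela3b lies at 36.1 points and its gene body at 2.97, and most bars cross 0.

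Cuzd1, which encodes a zymogen granule protein with CUB and zona pellucida-like domains, had no promoter row and a gene row at chr7:131308554-131322292. Coverage was 19.6 and 33.7, and 1 amphetamine mouse had no reads. Amphetamine mice with reads were at 75%, 75%, 75% and 100%, and the controls at 80%, 91.7% and, in the other 4, 100%. The difference of -14.0 points had a standard error of 6.10 (limma, unadjusted p = 0.0463, adjusted p = 0.984). The 3 low amphetamine mice were below every control, and the fourth equalled the highest. A single tile inside the gene, which also overlaps Fgfr2, held the same values.

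Among the elastase and chymotrypsin gene bodies, Cela1 was the deepest of the 17, with coverage of 735 and 699. Its amphetamine mice were at 35.0%, 40.3%, 46.0%, 48.3% and 50.9% and its controls at 42.0%, 42.8%, 44.8%, 48.5%, 55.2% and 57.6%. The 2 lowest mice were amphetamine mice and the 2 highest were controls, and the difference of -4.40 points with a standard error of 3.78 did not pass (limma, adjusted p = 0.984). Cela3b spread less across its gene body than across its promoter, with an SD of 10.4 in amphetamine and 3.35 in control mice. The amphetamine mice were at 62.6%, 73.9%, 76.2%, 78.4% and 91.7% and the controls at 68.7%, 71.6%, 73.3%, 73.4%, 76.4% and 78.1%, a difference of 2.97 points with a standard error of 4.26. The other gene rows of the group were Ctrb1 at 78.9% ± 13.9 and 80.4% ± 26.8, Cela2a at 75.9% ± 6.34 and 72.9% ± 10.8, and Ctrc at 77.1% ± 4.34 and 79.8% ± 6.81. The row of Ctrc spans that of Cela2a, so these share reads. For the gene body of Ctrl only 2 controls had reads, both at 100%, beside amphetamine mice at 52.6% once and 100% in the other 3.

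The gene body of Cel was at 67.0% ± 16.5 in amphetamine and 81.8% ± 13.1 in control mice, a difference of -14.8 points with a standard error of 8.40 (limma, unadjusted p = 0.108, adjusted p = 0.984). Amphetamine mice ranged from 39.5% to 80% and controls from 56.5% to 91.2%. Of the other lipase genes, Pla2g1b, the secreted phospholipase A2 of pancreatic juice, had the deepest coverage (444 and 360) and means of 73.7% ± 5.86 and 72.4% ± 7.67. Pnlip was at 96.1% ± 6.89 and 94.4% ± 13.6, where 5 of the 6 controls were at 100% and 1 at 66.7%. Pnliprp1 was at 59.4% ± 13.8 and 55.3% ± 34.6, and its controls were spread from 16.7% to 100%. Clps was read in 4 and 5 mice, with means of 53.9% ± 22.4 and 53.8% ± 19.9.

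The remaining gene rows differed by less than their standard error. The carboxypeptidase A precursor Cpa1 was at 59.5% ± 6.07 in amphetamine and 58.2% ± 32.9 in control mice, whose range ran from 0% to 92.0%. Cpb1 was at 80% ± 13.6 and 74.7% ± 13.7. The amylase gene Amy1, which is related to the other amylase genes, was at 75.3% ± 12.7 and 80.2% ± 10.5. Gp2, the major glycoprotein of the zymogen granule membrane, was at 81.4% ± 4.81 and 78.7% ± 19.1.

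The 52 tiles overlapped the gene or promoter window of each of the 19 genes with a row and of 6 others. Their median control level was 77.9%, the median over all tiles being 83.5%, and all mice had reads in 42. Methylation was higher in amphetamine mice in 22 and lower in 30, with a median difference of -2.14 points against 0 over all tiles, and a median size of 5.99 points against 4.53. Limma called 0 of 52 after adjustment, where 0.0320% of all tiles were called. At an unadjusted p under 0.05, 1 of 52 passed, against 4.41% of all tiles, and with the prior variance that follows mean methylation 2 others passed in its place, those of Try5 and Cuzd1 (limma, adjusted p = 0.955 for both). None of the 52 had group ranges apart, which 0.550% of all tiles had. Tiles are not independent of the other rows, since those of Cela3b, Pnlip, Clps and Spink3 repeat a promoter's values and those of Cpa1 and Cuzd1 a gene body's.

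**Figure D5:**
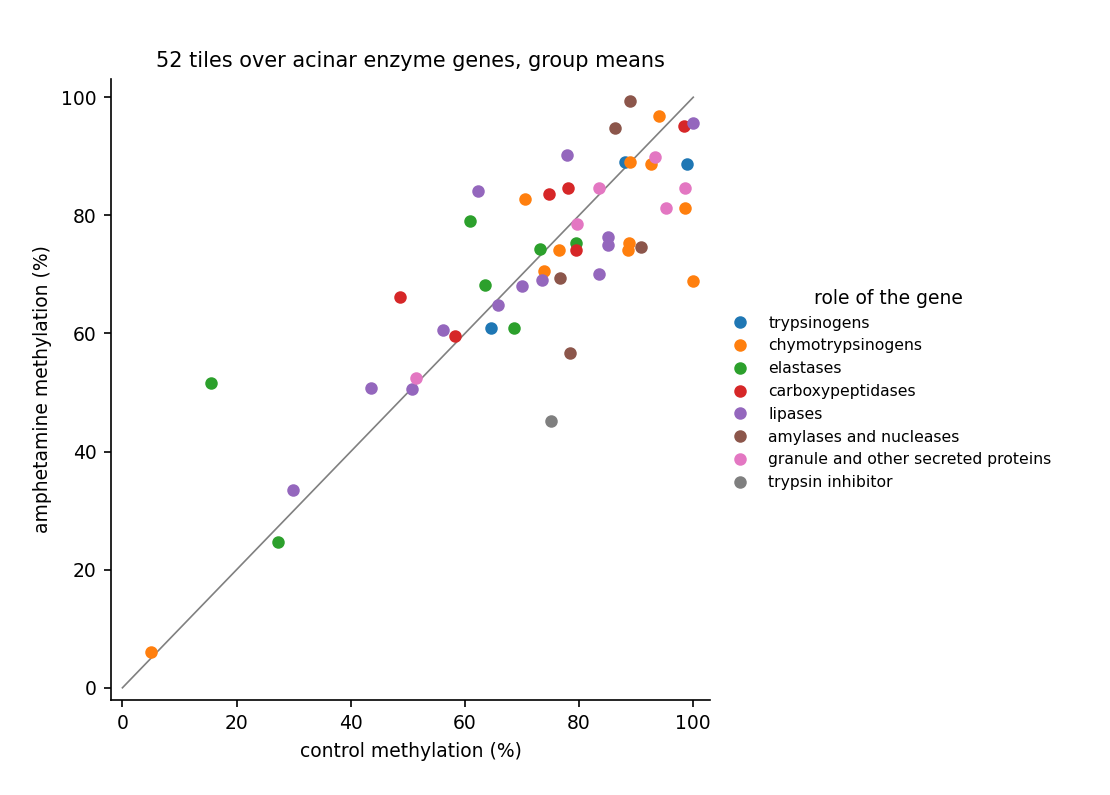
Mean methylation in percent of the 52 tiles, control on the horizontal and amphetamine on the vertical axis, coloured by the role of the gene (tiles shared by Ctrc and Cela2a are drawn with the chymotrypsinogens). The line marks equal levels; 22 tiles lie above it and 30 below, and the elastase tile at 15.5% and 51.7% holds the Cela3b promoter.

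The tile of smallest p covered Rnase1, the pancreatic ribonuclease, with its whole promoter window (chr14:51145001-51150000), and it had even coverage of 160 and 156. The amphetamine mice were at 46.5%, 72.7%, 81.9%, 82.7% and 89.2% and the controls at 82.7%, 84.7%, 87.1%, 95.1%, 95.4% and 100%. The 2 lowest were the amphetamine males, and the amphetamine females lay at 81.9% to 89.2%, beside control females at 82.7% to 95.4%. The difference of -16.2 points had a standard error of 7.16 (limma, unadjusted p = 0.0468, adjusted p = 0.965).

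Next came the Cuzd1 tile already described and the tile over Ctrl (chr8:105930001-105935000), which takes in the whole gene and most of its promoter. The latter tile also overlaps Gm16156 and Pskh1, so its values do not belong to Ctrl alone. In the tile over Ctrl the amphetamine mice were at 50.8%, 75%, 80%, 100% and 100% and the controls at 92.2%, 98.8% and, in the other 4, 100%. Coverage was 71.0 and 30.0, and the difference was -17.3 points with a standard error of 8.0 (limma, unadjusted p = 0.0555, adjusted p = 0.965). The 3 lowest were amphetamine mice. The neighbouring tile reaches 362 bp into the Ctrl promoter window and also overlaps Gm16156, Psmb10 and Lcat. It was at 6.13% ± 1.19 and 4.97% ± 1.22 with coverage of 589 and 507, the lowest control level of the 52. No CpG in reach of the Ctrl window lay in the part covered by this neighbouring tile. The values of that tile are therefore not a level of the Ctrl promoter.

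For 6 genes with neither row a tile overlapped the gene or its promoter window, in some by little. The tile of Prss2 covered 79 bp of the gene and that of Dnase1 24 bp, and neither touched the promoter window. The Dnase1 tile also overlaps Trap1. Those of Try5 and Reg2 missed the gene and covered 1210 and 1346 bp of its promoter window. That of Prss3 covered 1242 bp of the gene, and that of Rnase1 1766 bp and the whole promoter window. The trypsinogen tiles were at 88.7% ± 11.9 in amphetamine and 99.0% ± 2.55 in control mice for Try5, at 89.0% ± 6.32 and 88.1% ± 8.99 for Prss3, and at 60.9% ± 19.1 and 64.5% ± 19.4 for Prss2. In the Try5 tile 5 of the 6 controls were at 100%, and amphetamine mice were at 74.2%, 78.8%, 90.5%, 100% and 100% (limma, unadjusted p = 0.0585, adjusted p = 0.965). The Reg2 tile, beside the regenerating protein gene, was at 89.9% ± 4.52 and 93.4% ± 5.20, and the Dnase1 tile at 94.8% ± 11.7 and 86.3% ± 12.5. Prss1, Try4, Amy2b, Zg16, Klk1 and Reg1 had no tile either and are not analysed here. Tiles that held the gene start had a median control level of 74.9% (16 tiles), and those clear of the promoter one of 79.5% (30 tiles).

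Females and males were compared over the same 11 mice, so that the values below, given as females minus males, are not independent of those above. Of the 11 promoters 0 were called with limma after adjustment, where 0.595% of all promoters were, and 0 passed at an unadjusted p under 0.05, against 6.09%. Females were higher in 3 promoters and lower in 8, with a median difference of -2.29 points against 0.0235 over all promoters. The median had the opposite sign in the members' gene bodies, 2.06 points against 0.258 over all genes. In their tiles it was 0.748 points against 0.619 over all tiles. Clps had the smallest p of the 11, with 44.9% ± 20.7 in females and 57.4% ± 6.85 in males (limma, unadjusted p = 0.210, adjusted p = 0.917). The males lay between 46.3% and 63.8% at Clps and the females between 17.2% and 69.7%. In the gene body of Clps the 4 females with reads were at 22.2%, 25%, 42.9% and 75% and the 5 males at 58.3%, 60.0%, 62.5%, 63.9% and 75%, a difference of -22.7 points with a standard error of 10.4 (limma, adjusted p = 0.782).

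Of the 17 gene bodies 0 were called between the sexes, against 0.411% of all genes, and 1 passed at an unadjusted p under 0.05, against 6.53%. It was Cel, with females at 83.6% ± 7.25 (75.5% to 91.2%) and males at 39.5%, 56.5%, 64.1%, 80% and 84.5%. The 3 lowest mice were males, and the difference was 18.7 points with a standard error of 7.61 (limma, unadjusted p = 0.0336, adjusted p = 0.724). The amphetamine group held 3 females and 2 males and the control group 3 of each.

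Of the 52 tiles 0 were called between the sexes, against 0.104% of all tiles, and 4 passed at an unadjusted p under 0.05, against 5.67%; they lay over Cela1 (2 tiles), Ctrc and Cel. Inside the gene body of Cela1 (chr15:100675001-100680000) females averaged 77.7% ± 17.1 and ranged from 53.5% to 100%, and males were at 36.0%, 37.4%, 58.3%, 59.0% and 65.0%. The difference was 26.6 points with a standard error of 9.02 (limma, unadjusted p = 0.0146, adjusted p = 0.783). The tile with the Cela1 start and promoter (chr15:100685001-100690000) had the opposite sign, with females at 18.8% ± 7.92 and males at 20.7%, 22.7%, 42.0%, 44.3% and 44.7%, a difference of -16.1 points with a standard error of 5.84 (limma, unadjusted p = 0.0201, adjusted p = 0.815). Over the whole Cela1 gene body the difference was -3.02 points, with females at 45.1% ± 3.21 and males at 48.1% ± 9.44. In the tile inside Ctrc (chr4:141835001-141840000) the females were at 84.3%, 85.0%, 85.2%, 86.3%, 100% and 100% and the males at 54.2%, 66.7%, 76.7%, 77.8% and 93.3%. The 4 lowest were males (limma, unadjusted p = 0.0309, adjusted p = 0.853).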

How the data were processed

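RRBS libraries of 11 pancreata were processed by the authors, who aligned single-end reads to mm10 with Bismark and summarized CpG per region with RnBeads. In the tables deposited by the authors, methylation of a group is a fraction, averaged over the mice with reads and given here in percent, and coverage is a signal averaged over all mice of the group. The group SDs, extremes and numbers of mice were used as deposited. The other columns hold the authors' own differences, quotients, p-values and ranks and were not used, nor were the CpG island tables.

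No values per mouse were in the tables used here. Limma's moderated test (limma 3.58.1, R 4.3.3) was therefore rebuilt from group means, SDs and numbers of mice (squeezeVar on the pooled variance, two-sided, Benjamini-Hochberg adjustment over the whole table, threshold 0.05), and was tested on simulated data. Single mice were solved from the mean, SD and extremes of a group with the extremes of the other split, for 22 of 44 promoter groups, and the 5 promoters solved in both splits gave the same values. CpG were counted in GRCm38, and RefSeq placed genes without a row.

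Full values are for promoters read in all mice at a mean coverage of at least 10 and for the 3 tiles of smallest p per comparison. Other values were chosen for the text after they were seen, and the members and lists were chosen with earlier results of these data known. Alternatives were the unadjusted p, a difference above 25 points with a fold above 1.5, a variance trend, coverage of at least 10, reads in all mice, an SD above 0 and other regions. Python 3.11.15 (numpy 2.4.6, pandas 2.3.3) was used. PCR copies of reads are not marked, so reads are not independent molecules.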

Additional observations from a re-analysis of the deposited data

Results flagged for a closer look

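In groups of 4 to 6 mice whose single values follow from the group summaries, a mouse far from the rest of its group was looked for by Dixon's criterion, which chance meets in about 1 of 20 groups and more often where most mice sit at 100%. At the Ctrl promoter 1 amphetamine female stood at 34.6% and 1 control female at 76.5%, each beside mice at 100%, and the first was also apart among all females. In the Ctrl gene body 1 amphetamine female was at 52.6%, apart in its treatment group and among females. Of the tiles, only those over Ctrl and Cuzd1 are listed, and others also held a mouse far from its group. In an Amy1 tile 1 control was at 33.3%, and in the Dnase1 tile 1 amphetamine mouse at 73.8%, each beside mice at 100%. In the tile over Ctrl 1 control stood apart at 92.2% and 1 male at 80%. At the Pnlip promoter 1 control was at 25%, and in the Pnlip gene body 1 control female at 66.7%, apart among controls and females. At the Sycn promoter and in its gene body, which share their reads, 1 amphetamine female was at 92.9%. At the Spink3 promoter 1 male was at 0% where the other 3 were at 100%. In the Cela3b gene body 1 amphetamine female was at 91.7%, apart among females. In the Cuzd1 gene body and tile 1 amphetamine mouse was at 100% where the other 3 were at 75%. The causes were not tested.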

How the results depend on the processing

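Over all alternatives run, 0 members were called in either comparison after adjustment for promoters, gene bodies and tiles. The added cut of 25 points and a fold of 1.5 can only remove calls, so its result of 0 was fixed in advance. At an unadjusted p under 0.05 the counts were 1 gene body and 1 tile for amphetamine against control, and 1 gene body and 4 tiles for females against males. With the gene body in place of the promoter, the difference turned from -10.0 to 1.62 points for Pnlip and from -0.191 to 0.0397 for Clps, and the cause was not tested. The median promoter difference, amphetamine against control, went from -1.43 to 4.45 points when only promoters with reads in all mice were kept. Coverage of at least 10 held for all 11 promoters, so this filter could not move the median from -1.43 points. An SD above 0 in both groups gave -2.02 points. The SD between mice does not measure how far such a median can move. No paired analysis was possible because the tables hold group summaries and the labels pair no mice across groups. Leaving out each mouse was not run, since the tables used here hold no values per mouse. The median standard error of the 11 promoter differences was 12.1 points.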
